A study of Sus scrofa with 15 samples.

Results

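The genes described here are 41 genes of the cell cycle and of cell proliferation, named by symbol and looked up in a table of read counts from piglet liver. A gene was taken when its pig Ensembl identifier carried that symbol. Of the 41 genes, 36 had a row among the 31908 genes of the table, and all 36 passed the filter on low counts that left 12774 genes for testing. MKI67, CCNA2, AURKA, PCNA and RRM2 were not matched to a row and were not analysed here. The rule itself reads symbols and no expression value, but the members were chosen with earlier results of these data known. The shares and medians below therefore describe the set and are not an independent test.

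The study examined m6A RNA methylation in the liver inflammation that LPS induces in piglets. Male Duroc x Large White x Landrace piglets in the growing stage, 6 per group, received an intraperitoneal injection of lipopolysaccharide (LPS, an outer membrane component of Gram-negative bacteria) at 80 μg/kg in the LPS group, or sterile saline in the CON group. Livers were taken at 4 h, so one dose and one time point were sampled, and no age is stated. Polyadenylated liver RNA, kept as input before the m6A antibody step, gave 3 libraries per group, which are the only libraries compared here. Whether each library came from one piglet or a pool is not stated, so the p-values measure the spread between these 6 libraries.

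A dividing cell passes through a growth phase, a phase of DNA synthesis, a gap and mitosis. D-type cyclins with CDK4 and CDK6 start the passage by releasing E2F factors from RB, cyclin E with CDK2 opens DNA synthesis, and cyclins A and B with CDK1 drive mitosis. Many of the genes that do the work of DNA synthesis and mitosis are transcribed only in cycling cells, whereas most hepatocytes of a healthy liver rest outside the cycle, and inhibitors such as p21 (the product of CDKN1A) and the GADD45 stress proteins hold cells back. In bulk tissue, fewer cycling cells and less mRNA per cycling cell cannot be told apart.

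Library totals were 5927348 to 10351491 counts for CON and 4348478 to 19967417 for LPS, and mitochondrial genes held 1.17% to 3.22% of the counts. Levels are given as CPM, counts scaled to a common library size with TMM factors. Log2 fold changes (LPS over CON), their standard errors (SE) and the p-values come from edgeR's quasi-likelihood test, with p adjusted over all tested genes. The LPS libraries differed among themselves. With all 6 libraries, 7 genes passed an adjusted p below 0.05 with a fold above 1.5 in the higher direction (0.0548% of the genes tested) and 0 in the lower direction (0%), while 790 and 809 genes had an unadjusted p below 0.05. Without LPS replicate 2 the counts were 512 higher (3.76%) and 470 lower (3.45%), so members whose call depends on that library are given with and without it. Hepatocyte markers summed to 67924 to 88853 CPM in the CON libraries and to 57789 to 116808 in the LPS libraries, and each of the 10 markers was detected. These sums combine 5 markers that were higher and 5 that were lower. FGB had 8098 to 12715 CPM in CON and 14561 to 44960 in LPS, and ALB had 20307 to 38011 and 12381 to 19676.

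Most proliferation genes were lower in the LPS livers. Of the 36 genes, 28 had a negative log2 fold change and 8 a positive one, with a median of -0.67 against 0.01 over all tested genes. All 3 LPS values lay below all 3 CON values in 17 of the 36 genes, or 47.2%, against 9.8% of all tested genes, and above them in 1 gene (CDK4), or 2.78%, against 6.52%. At an unadjusted p below 0.05, 12 genes were lower and 3 were higher, where 6.33% of all tested genes were lower and 6.18% higher. With adjustment over all genes, edgeR's quasi-likelihood test called 0 of the 36 in either direction, so no single member passed. DESeq2 called 0 higher and 2 lower (BUB1B and CCNB1), against a background of 1.91% higher and 0.995% lower.

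The calls for single genes rested on the choice of test and library. Without LPS replicate 2, edgeR called 3 members higher (CDKN1A, GADD45B and GADD45G) and 3 lower (BUB1B, E2F1 and MCM4), against 3.76% and 3.45% of all genes tested in that fit. Without the filter on low counts it called the same 3 higher, against a background of 2.28%, and BUB1B and CCNB1 lower, against 1.48%. The likelihood ratio test called GADD45B higher, against 1.59%, and BUB1B and CCNB1 lower, against 1.19%. All 17 genes whose groups did not overlap kept a negative sign under each alternative tried, but their selection by separation largely fixed that sign. Leaving out 1 library cannot undo such a separation, so the fits without 1 library do not test it. Of the 36 genes, 10 share exon bases with another gene model (CDK2, CDK4, CCND3, CCNE2, PLK1, BUB1B, MCM2, MCM7, TYMS and TK1), and reads from shared bases are uncertain, since the treatment of strand in the counting is not known.

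**Figure D1:**
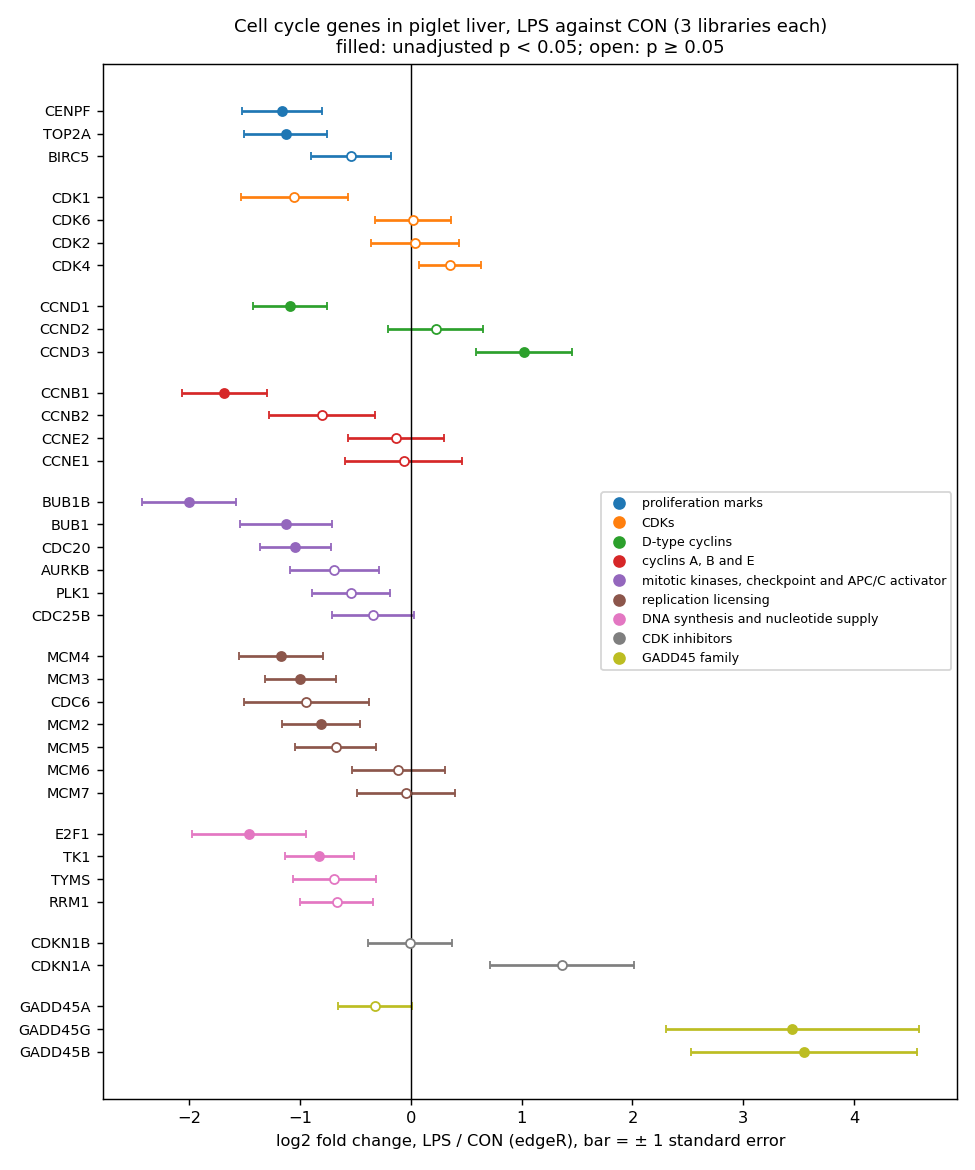
Log2 fold change (LPS over CON, edgeR) of the 36 genes, grouped and coloured by role, with bars of 1 standard error and filled points for an unadjusted p below 0.05. Genes of mitosis, replication licensing and DNA synthesis lie to the left of 0, down to -2.001 for BUB1B, while GADD45B (3.55) and GADD45G (3.44) lie far to the right with wide bars.

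Among the general marks of proliferation, TOP2A and CENPF were lower in the LPS group. TOP2A (chromosome 12, bases 22001336 to 22028454, the build of these coordinates is not stated), the topoisomerase that untangles chromosomes in dividing cells, had 42.4, 29.1 and 19.1 CPM in the 3 CON libraries and 12.4, 11.8 and 17.0 CPM in the 3 LPS libraries, in the order of replicates 1, 2 and 3 that is kept throughout. The groups did not overlap, but the lowest CON library and the highest LPS library were close. Its log2 fold change was -1.13 ± 0.37 SE (edgeR adjusted p = 0.268). CENPF, a kinetochore protein, had 33.2, 27.8 and 16.6 CPM in the CON libraries against 9.16, 13.9 and 11.5 in the LPS libraries, a log2 fold change of -1.16 ± 0.36 SE (edgeR adjusted p = 0.252). As with TOP2A, CON replicate 1 was the highest library and CON replicate 3 the lowest of its group. BIRC5, which encodes survivin, a partner of Aurora B, overlapped between groups, with 12.2 to 22.0 CPM in the CON group, 9.65 to 15.3 in the LPS group and a log2 fold change of -0.54 ± 0.36 SE.

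Among the cyclin-dependent kinases, CDK1 and CDK4 separated the groups in opposite directions. CDK1, the mitotic kinase, had 6.35, 2.81 and 3.56 CPM in the CON libraries against 2.62, 1.64 and 1.98 in the LPS libraries. Every LPS value was below every CON value, but by a narrow margin, with a log2 fold change of -1.05 ± 0.49 SE (edgeR adjusted p = 0.418). CDK4, the partner of D-type cyclins, was the one gene of the set whose LPS values all lay above the CON values, with 45.2, 49.8 and 50.5 CPM against 61.7, 52.8 and 71.1. Its log2 fold change was small at 0.35 ± 0.28 SE (edgeR adjusted p = 0.643). With library totals as the only scaling, 0 of the 36 genes had all LPS values above all CON values, against 4.81% of all tested genes. CDK4 shares 95 exon bases with TSPAN31 on the opposite strand, whose LPS values were also all above its CON values. CDK2, the cyclin E kinase, and CDK6, the other partner of D-type cyclins, overlapped between groups, with log2 fold changes of 0.04 and 0.02 (SE 0.40 and 0.35).

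Of the D-type cyclins, CCND1 and CCND3 had log2 fold changes of opposite sign. CCND1 (chromosome 2, bases 3621246 to 3633296), the cyclin D of growth-stimulated hepatocytes, had 139, 99.4 and 119 CPM in the CON libraries against 76.3, 50.2 and 42.3 in the LPS libraries. All LPS libraries were below all CON libraries, with a log2 fold change of -1.09 ± 0.33 SE (edgeR adjusted p = 0.246). CCND3, the cyclin D that is prominent in blood cells, had 41.9, 43.0 and 78.9 CPM in the CON libraries against 114, 57.1 and 161 in the LPS libraries. Here LPS replicate 2 fell within the CON range, and the log2 fold change with all libraries was 1.02 ± 0.43 SE (edgeR adjusted p = 0.376) and 1.34 once LPS replicate 2 was removed (edgeR adjusted p = 0.0582, the lowest of the alternatives, which reached 0.766).

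Within each library the level of CCND1 per kilobase was 7.39, 5.15 and 3.36 times that of CCND3 in the CON libraries and 1.49, 1.96 and 0.586 times in the LPS libraries. The ratio was thus lower in each LPS library than in each CON library, and in LPS replicate 3 CCND3 was the more abundant of the pair. CCND3 shares 2775 exon bases with BYSL on the opposite strand. BYSL had 22.3, 18.7 and 30.2 CPM in the CON libraries against 29.2, 18.0 and 75.4 in the LPS libraries, so its highest library was also LPS replicate 3. CCND2 was low, at 4.75 to 5.47 CPM in the CON group and 3.05 to 8.40 in the LPS group, with overlapping groups and a log2 fold change of 0.23 ± 0.43 SE.

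Of the cyclins that act later, CCNB1 separated the groups most widely. CCNB1 (ENSSSCG00000029326, chromosome 16, bases 47338110 to 47348381), the cyclin that takes CDK1 into mitosis, had 10.5, 8.28 and 7.51 CPM in the CON libraries against 2.40, 2.29 and 3.35 in the LPS libraries. The lowest CON value was 2.25 times the highest LPS value. Means were 8.75 ± 1.53 and 2.68 ± 0.58 CPM (SD, n = 3 each), which gave a log2 fold change of -1.68 ± 0.38 SE with an edgeR adjusted p of 0.147 and a DESeq2 adjusted p of 0.0310. Over all alternatives its adjusted p ran from 0.0122 to 0.586. CCNB2, the second mitotic B-type cyclin, overlapped, with a log2 fold change of -0.80 ± 0.48 SE. The E-type cyclins, which pair with CDK2 at the start of DNA synthesis, had log2 fold changes of -0.07 ± 0.53 SE for CCNE1 and -0.13 ± 0.43 SE for CCNE2, both with overlapping groups.

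BUB1B had the largest negative log2 fold change of the 36 genes. BUB1B (ENSSSCG00000004782, chromosome 1, bases 131075058 to 131143805) encodes BubR1, a protein of the spindle checkpoint that delays chromosome separation until all chromosomes are attached. It had 9.29, 7.5 and 5.44 CPM in the CON libraries against 1.53, 2.29 and 1.71 in the LPS libraries, from 104, 48 and 55 counts and 7, 14 and 25 counts. The lowest CON value was 2.37 times the highest LPS value, the widest gap among the 17 genes. Means were 7.41 ± 1.93 and 1.84 ± 0.399 CPM (SD, n = 3 each), which gave a log2 fold change of -2.001 ± 0.42 SE, with adjusted p of 0.114 in edgeR, 0.0125 in DESeq2 and 0.0254 in edgeR without LPS replicate 2, and 0.00400 to 0.586 over all alternatives. BUB1B shares 81 exon bases with PAK6 on the same strand. PAK6 held 49 counts in all 6 libraries together, against 253 for BUB1B, and the effect of the shared bases was not tested.

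The other genes of the spindle checkpoint and its release were also lower. BUB1, the partner kinase in the checkpoint, had 6.35, 5.31 and 3.76 CPM in the CON libraries against 2.62, 2.29 and 2.18 in the LPS libraries, with a log2 fold change of -1.13 ± 0.42 SE (edgeR adjusted p = 0.324). CDC20, which activates the anaphase-promoting complex once the checkpoint is satisfied, had 15.6, 20.6 and 17.0 CPM against 7.63, 9.33 and 8.81. For CDC20 the LPS libraries lay close together and the lowest CON value was 1.67 times the highest LPS value, with a log2 fold change of -1.04 ± 0.32 SE (edgeR adjusted p = 0.244). The mitotic kinases PLK1 and AURKB and the CDK1-activating phosphatase CDC25B had log2 fold changes of -0.54, -0.69 and -0.34 (SE 0.35, 0.40 and 0.37), all with overlapping groups. PLK1 was at 16.1 CPM in LPS replicate 1, inside its CON range of 15.7 to 17.3, and at 9.0 and 9.08 CPM in LPS replicates 2 and 3.

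**Figure D2:**
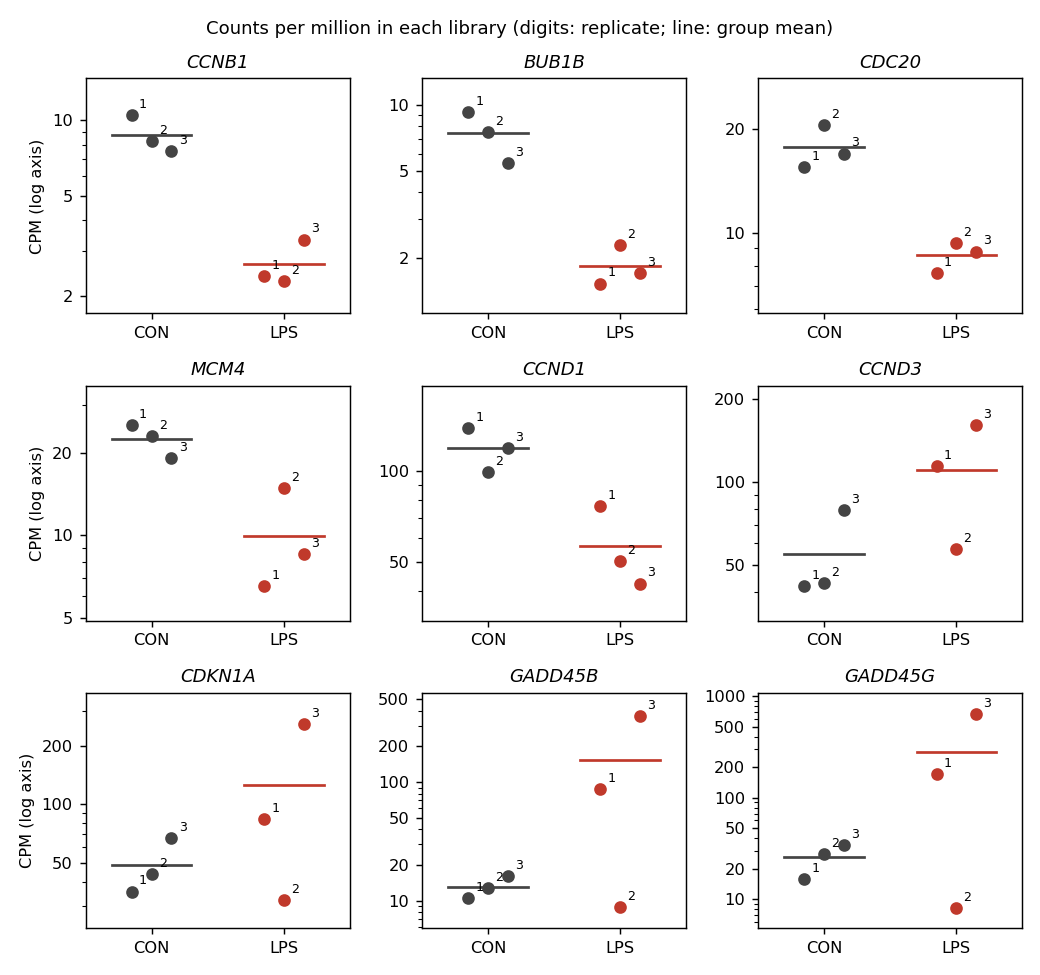
CPM on a log axis in each library for 9 genes, with points numbered by replicate, CON in grey, LPS in red and a line at each group mean. In CCNB1, BUB1B, CDC20, MCM4 and CCND1 all 3 LPS points lie below all 3 CON points, whereas in CDKN1A, GADD45B and GADD45G LPS replicates 1 and 3 lie above the CON points and LPS replicate 2 below them.

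Replication licensing genes, which load the MCM helicase onto DNA before synthesis, were lower without overlap for MCM2 to MCM5, while MCM6 and MCM7, subunits of the same ring, overlapped between groups. MCM4 had 25.3, 23.0 and 19.2 CPM in the CON libraries against 6.54, 14.9 and 8.53 in the LPS libraries. Its log2 fold change was -1.17 ± 0.38 SE (edgeR adjusted p = 0.263) and -1.56 without LPS replicate 2, the highest LPS library, where the adjusted p was 0.0327 (0.0327 to 0.710 over all alternatives). MCM3 had 20.02, 17.2 and 16.9 CPM against 7.41, 10.6 and 9.01, with a log2 fold change of -0.996 ± 0.32 SE (edgeR adjusted p = 0.259). In MCM3 both groups were tight and clearly apart.

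MCM2 had 16.6, 15.3 and 14.2 CPM in the CON libraries against 5.67, 9.98 and 10.4 in the LPS libraries, a log2 fold change of -0.81 ± 0.35 SE (edgeR adjusted p = 0.385). It shares 201 exon bases with a gene model without a symbol on the opposite strand. That model held 1558 counts in all 6 libraries together, against 668 for MCM2. MCM5, which lies on a scaffold not placed on a chromosome, had 19.7, 20.5 and 18.6 CPM against 7.63, 17.8 and 11.1, a log2 fold change of -0.68 ± 0.37 SE (edgeR adjusted p = 0.489). LPS replicate 2 came within 1.04-fold of the CON libraries in MCM5, and LPS replicate 1 was the lowest library in each of MCM2 to MCM5. CDC6, the loader that recruits the helicase, had 2.23, 2.19 and 1.88 CPM against 1.74, 0.491 and 1.09, from 25, 14 and 19 counts against 8, 3 and 16, with a log2 fold change of -0.94 ± 0.56 SE (edgeR adjusted p = 0.527). CDC6 was the least abundant of the 36 genes per kilobase in the CON group, so its separation rests on few reads.

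MCM6 ranged from 11.1 to 20.8 CPM in CON and from 8.02 to 21.0 in LPS, and MCM7 from 33.1 to 59.2 and from 27.9 to 82.5. Their log2 fold changes were -0.11 ± 0.42 SE and -0.04 ± 0.44 SE. In both genes LPS replicate 3 had the highest TMM-scaled CPM of all 6 libraries, and without it the log2 fold changes were -0.51 and -0.65. The TMM factor of that library was 0.735, against 0.979 to 1.11 in the others, so its rank here rests in part on the scaling. With library totals as the only scaling the log2 fold changes were -0.33 for MCM6 and -0.28 for MCM7. MCM7 shares 243 exon bases with COPS6 and 266 with AP4M1, both on the opposite strand.

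All 4 measured genes of DNA synthesis and nucleotide supply were lower without overlap. E2F1, the transcription factor that switches on S-phase genes, had 12.6, 9.22 and 5.73 CPM in the CON libraries against 1.53, 5.56 and 2.87 in the LPS libraries. CON replicate 3 and LPS replicate 2 were nearly equal, 1.03-fold apart, and the log2 fold change with all libraries was -1.46 ± 0.51 SE (edgeR adjusted p = 0.294) and -1.98 once LPS replicate 2 was removed (edgeR adjusted p = 0.0440, with 0.0440 to 0.742 over all alternatives). TK1, the salvage enzyme for thymidine, had 34.7, 32.7 and 22.1 CPM against 18.1, 17.2 and 15.2, a log2 fold change of -0.83 ± 0.31 SE (edgeR adjusted p = 0.330). The TK1 values were even within the LPS group. Its gene model spans several other genes, SOCS3 among them, but shares exon bases only with SYNGR2 (30) and TMC8 (25).

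RRM1, the large subunit of ribonucleotide reductase, had 48.4, 32.2 and 29.9 CPM in the CON libraries against 17.7, 24.7 and 27.1 in the LPS libraries, with a log2 fold change of -0.67 ± 0.33 SE (edgeR adjusted p = 0.450). TYMS, which makes thymidylate, had 9.56, 16.2 and 9.99 CPM against 8.94, 7.85 and 5.53, with a log2 fold change of -0.69 ± 0.38 SE (edgeR adjusted p = 0.493). The groups were separated by 1.10-fold in RRM1 and 1.07-fold in TYMS. TYMS shares 300 exon bases with ENOSF1 on the opposite strand, and ENOSF1 was itself lower in all LPS libraries, with 20.7, 18.6 and 17.3 CPM against 4.36, 12.4 and 4.98.

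The inhibitors of the cycle did not follow this pattern. CDKN1A (ENSSSCG00000001565, chromosome 7, bases 32359455 to 32363761), the gene of p21, which blocks CDK complexes, had 35.5, 43.6 and 66.6 CPM in the CON libraries against 83.7, 32.1 and 259 in the LPS libraries. LPS replicates 1 and 3 were above all CON libraries, while LPS replicate 2 was below them. The log2 fold change was 1.36 ± 0.65 SE (edgeR adjusted p = 0.433), 1.83 without LPS replicate 2 (adjusted p = 0.0425) and 0.27 with LPS replicate 3 removed (adjusted p = 0.858). Over all alternatives the adjusted p ran from 0.0291 to 0.858. CDKN1B, the gene of p27, which holds resting cells out of the cycle, ranged from 15.4 to 22.5 CPM in CON and 12.0 to 28.5 in LPS, with a log2 fold change of -0.01 ± 0.38 SE.

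GADD45B and GADD45G had the largest positive fold changes of the 36 genes, and the largest SE. GADD45 proteins bind stress kinases, p21 and PCNA, and are induced by DNA damage, cytokines and growth arrest. GADD45B (ENSSSCG00000022689, chromosome 2, bases 76107929 to 76111479) had 10.5, 12.7 and 16.1 CPM in the CON libraries against 87.7, 8.83 and 362 in the LPS libraries. GADD45G (ENSSSCG00000035249, chromosome 14, bases 1165982 to 1167538) had 15.7, 28.0 and 34.2 CPM in the CON libraries against 172, 8.18 and 665 in the LPS libraries. LPS replicate 3 was the highest of all libraries for both genes, LPS replicate 1 came second, and LPS replicate 2 was the lowest of all 6. Means were 13.1 ± 2.85 and 153 ± 185 CPM for GADD45B and 26.0 ± 9.40 and 282 ± 342 CPM for GADD45G (SD, n = 3 per group), so the SD in the LPS group exceeded its mean.

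The log2 fold change of GADD45B was 3.55 ± 1.02 SE (edgeR adjusted p = 0.224), 4.11 without LPS replicate 2 (adjusted p = 0.00278) and 1.89 with LPS replicate 3 removed (adjusted p = 0.438). That of GADD45G was 3.44 ± 1.14 SE (edgeR adjusted p = 0.273), 4.02 without LPS replicate 2 (adjusted p = 0.00411) and 1.81 with LPS replicate 3 removed (adjusted p = 0.587). The size of both thus depended on which LPS library was included, and their adjusted p ran over all alternatives from 5.21e-13 (without the filter on low counts) to 0.710 for GADD45B and from 7.28e-12 to 0.722 for GADD45G. GADD45A, the family member best known as a p53 target, ranged from 17.3 to 25.2 CPM in CON and 13.3 to 20.8 in LPS, with a log2 fold change of -0.32 ± 0.34 SE. Per kilobase, GADD45G was at 1.33, 3.40 and 4.20 times the level of GADD45A in the CON libraries and at 27.5, 1.27 and 68.1 times in LPS replicates 1, 2 and 3, so the family members differed within the libraries of LPS replicates 1 and 3. CDKN1A, GADD45B and GADD45G ordered the 6 libraries identically, an order found in 61 of the 12774 tested genes (0.478%).

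The 31 measured genes other than the CDK inhibitors and the GADD45 family showed no such contrast among LPS libraries as a group. Their median level, as log2(CPM + 0.5) minus the mean of the CON libraries, was 0.23, 0.04 and -0.13 in the CON libraries against -0.78, -0.61 and -0.74 in the LPS libraries. In this median LPS replicate 2 lay with the other LPS libraries, whereas it lay lowest of all libraries for CDKN1A, GADD45B and GADD45G. Single genes differed, since LPS replicate 2 was the lowest LPS library in CCND3 and the highest in MCM4, MCM5 and E2F1. Within the CON group, replicate 1 was the highest library in 14 of the 17 genes without overlap and replicate 3 the lowest in 13. In the LPS group replicates 1, 2 and 3 held 6, 7 and 4 of the highest values and 9, 4 and 4 of the lowest.

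**Figure D3:**
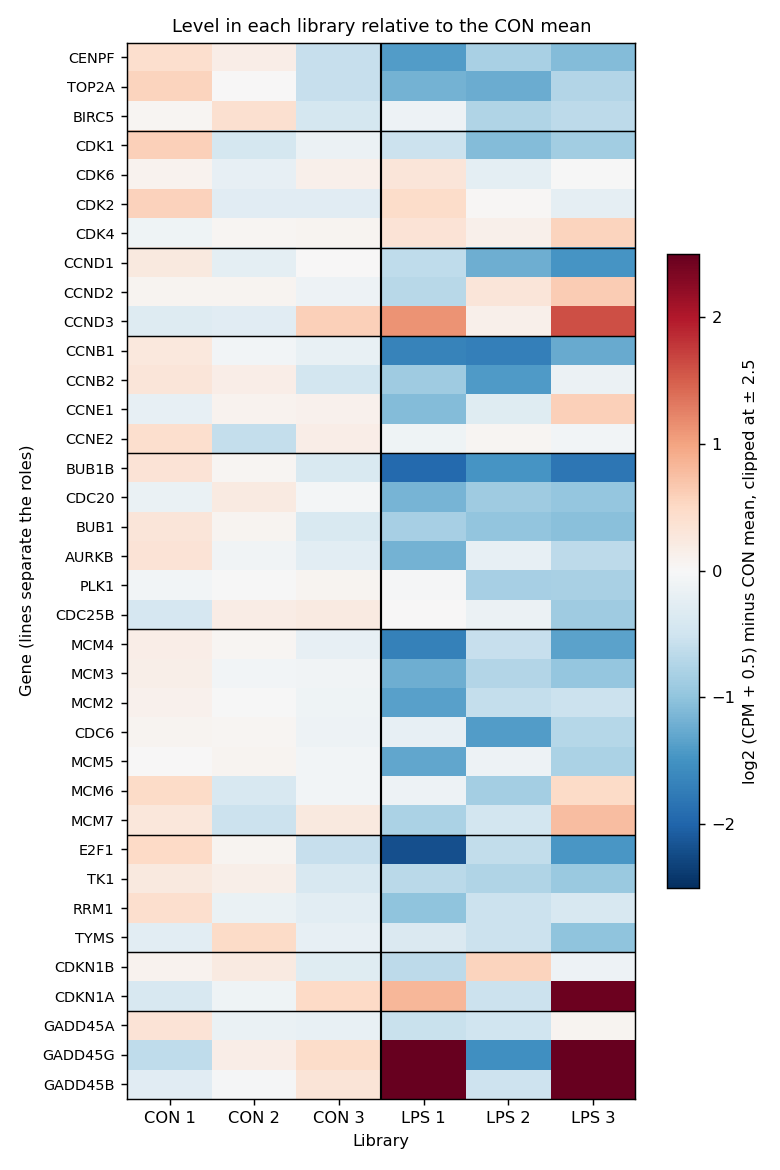
Level of each of the 36 genes in each library as log2(CPM + 0.5) minus the CON mean of the gene, blue below and red above, clipped at ± 2.5, with lines between the roles. Blue fills all 3 LPS columns for most genes from CENPF to TYMS, and dark red marks GADD45B and GADD45G in LPS replicates 1 and 3 but not in LPS replicate 2.

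The count of genes without overlap was also read with 1 library left out in turn, which can add genes to it but remove none. Between 18 and 20 of the 36 genes then had all remaining LPS values below all remaining CON values, where 12.0% to 22.7% of all tested genes did. With RLE size factors the number was 16, against 9.03% of all tested genes, and with library totals alone it was also 16, against 10.3%. The gap between the lowest CON and the highest LPS value ran from 1.03-fold in E2F1 to 2.37-fold in BUB1B. Of the 17 genes, BUB1B and CCNB1 were the ones with a gap above 2-fold. An exact two-sided permutation test of 3 against 3 libraries cannot give a p below 0.1, so such a separation in 1 gene alone does not pass 0.05.

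Levels per kilobase placed the set across much of the range of liver expression. In the CON group CDK4, CCND1, CDKN1A and GADD45G lay at the 90.8th, 90.5th, 89.5th and 88.8th percentile of all tested genes. The mitotic and S-phase genes spread widely, from MCM7 at the 84.5th, TK1 at the 81.4th and CDC20 at the 74.7th to BUB1B at the 34.5th, CDK1 at the 15.4th and CDC6 at the 6.55th percentile.

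Other genes of the same processes were read from 6 further lists, none of which holds a member. Like the members, these lists were chosen with earlier results of these data known. Of 42 tested DNA replication genes, 32 were lower and 10 higher, the median log2 fold change was -0.62, and 12 (28.6%, against 9.8% of all tested genes) had all LPS values below all CON values. UHRF1, which carries DNA methylation through replication, had 23.1, 26.9 and 20.7 CPM in the CON libraries against 5.45, 9.49 and 9.69 in the LPS libraries, a log2 fold change of -1.503 ± 0.35 SE with an adjusted p of 0.154 in edgeR and 0.0183 in DESeq2 (0.0113 to 0.586 over all alternatives). The polymerase subunit POLE, the helicase cofactor GINS1 and the primase subunit PRIM2 were also lower without overlap, with log2 fold changes of -1.24, -1.16 and -1.24 (SE 0.37, 0.41 and 0.45). None of the 42 genes passed in edgeR's quasi-likelihood test, 0 had an unadjusted p below 0.05 in the higher direction, and 8 did in the lower direction, where 6.33% of all tested genes did. DESeq2 called 1 of the 42, UHRF1, lower, against 0.995% of all genes, and edgeR without LPS replicate 2 called 2 lower, against 3.45%.

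Mitosis and cytokinesis genes had the largest share of LPS values below CON among the 6 further lists. Of 45 tested genes, 43 were lower and 2 higher, with a median of -1.16. In 27 (60.0%, against 9.8% of all tested genes) the LPS values all lay below the CON values. Of these 45, 25 had an unadjusted p below 0.05 in the lower direction and 0 in the higher one. Over all tested genes the shares were 6.33% lower and 6.18% higher. ASPM, a spindle pole protein, had 12.2, 7.03 and 4.84 CPM in the CON libraries against 1.53, 2.62 and 1.84 in the LPS libraries, with a log2 fold change of -2.004 ± 0.48 SE. CENPE, a kinetochore motor, TPX2, which activates Aurora A, and STMN1, a microtubule destabilizer, had log2 fold changes of -1.90, -1.56 and -1.26 (SE 0.46, 0.41 and 0.32). DESeq2 called these 4 genes lower, with adjusted p of 0.0237, 0.0190, 0.0334 and 0.0457, against 0.995% of all genes. The quasi-likelihood test of edgeR called 0 of the list with all libraries and 5 lower without LPS replicate 2, against 3.45%. Over all alternatives the adjusted p of the 4 genes ran from 0.00349 in CENPE to 0.688.

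The genes of control before S phase were split in direction. Of 22 tested genes of the RB and E2F list, 14 were higher and 8 lower, with a median of 0.12. All LPS values lay below all CON values in 5 (22.7%, against 9.8% of all tested genes) and above them in 2 (9.09%, against 6.52%). E2F8, E2F7, E2F2 and RB1 were lower without overlap (log2 fold changes -2.46, -1.36, -0.89 and -0.68, SE 0.71, 0.48, 0.38 and 0.35). E2F7 and E2F8 are repressors of the E2F family, E2F2 is an activator, and RB1 is the restraint on E2F. E2F3, a further activator, was higher, with 4.65, 2.97 and 5.44 CPM against 8.50, 5.89 and 10.1 and a log2 fold change of 0.90 ± 0.40 SE (edgeR adjusted p = 0.392). The E2F activators thus differed in sign. TFDP1, the dimer partner of E2F, lay above the CON group by little (log2 fold change 0.12, SE 0.27), with the opposite sign, -0.0018, under library totals.

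Inhibitors, antiproliferative genes and p53 targets had 16 of 28 tested genes higher and 12 lower, and their median was 0.09, or -0.07 under library totals. In 1 gene of the list (PPM1D, a phosphatase that ends the p53 response, log2 fold change 0.28, SE 0.33) the LPS values were all higher, and in 1 (PLK2, a stress-induced kinase, -0.51, SE 0.32) all lower. DNA damage checkpoint genes had 7 of 18 higher and 11 lower, with a median of -0.12, and in 3 (16.7%, against 9.8% of all tested genes) the LPS values were all lower. Among these were BRCA1, which acts in the repair of broken DNA, and the checkpoint kinase CHEK2, with log2 fold changes of -0.69 and -0.93 (SE 0.41 and 0.53). The shares without overlap in the inhibitor list (3.57% higher and 3.57% lower) lay under the 6.52% and 9.8% of all tested genes. Without LPS replicate 2 edgeR called 2 genes of that list higher and 1 lower, against 3.76% and 3.45% of all genes tested in that fit.

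**Figure D4:**
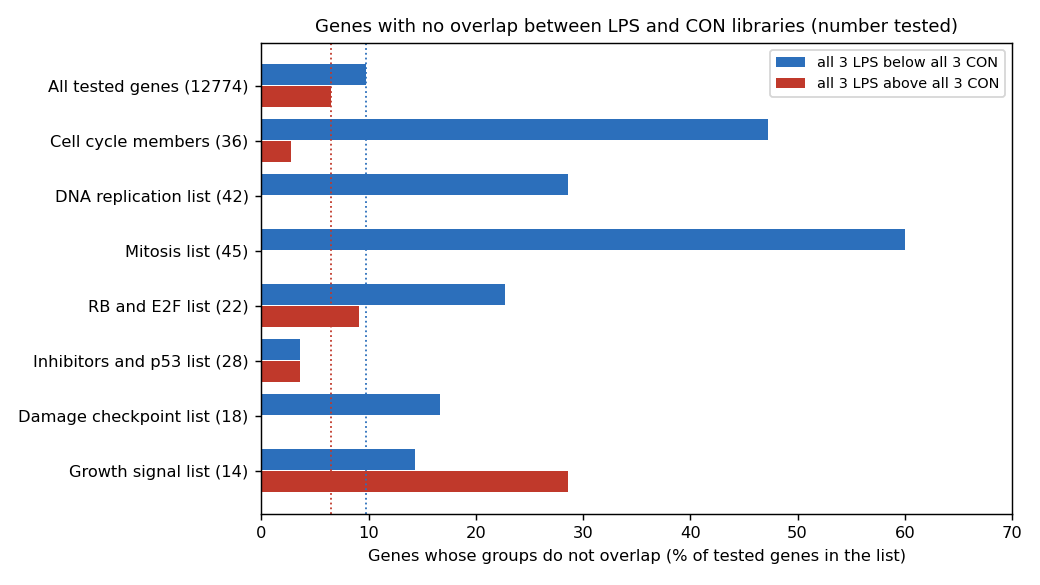
Percentage of tested genes whose 3 LPS values all lie below (blue) or all above (red) the 3 CON values, for all tested genes, the 36 cell cycle genes and the 6 further lists, with dotted lines at the shares over all tested genes (9.8% and 6.52%). The mitosis list reaches 60.0% and the 36 genes 47.2%, while the inhibitor list is at 3.57% in both directions.

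Signals that act on hepatocyte growth were split as well. Of 14 tested genes, 10 had positive and 4 negative log2 fold changes (median 0.47). All LPS values exceeded all CON values in 4 genes (28.6%, against 6.52% of all tested genes). All LPS values fell below all CON values in 2 genes (14.3%, against 9.8% of all tested genes). The median rested on LPS replicate 3, without which it was 0.0056. HGF, the main mitogen of hepatocytes, had 12.0, 14.4 and 7.81 CPM in the CON libraries against 1.96, 4.91 and 4.23 in the LPS libraries, a log2 fold change of -1.59 ± 0.44 SE (edgeR adjusted p = 0.218), and its receptor MET had 29.1, 19.2 and 14.8 CPM against 6.54, 12.6 and 5.12, with -1.39 ± 0.44 SE (edgeR adjusted p = 0.256, and 0.0275 without LPS replicate 2). Both genes of this ligand and receptor pair were lower in every LPS library than in every CON library. INHBB, a subunit of activin B, had 5.45, 7.03 and 3.76 CPM against 12.9, 14.4 and 76.3, with a log2 fold change of 2.69 ± 0.69 SE and adjusted p of 0.202 in edgeR and 0.00190 in DESeq2 (9.53e-08 to 0.688 over all alternatives). CCN2, HBEGF and TGFB1, a matrix protein, an EGF receptor ligand and an inhibitor of hepatocyte division, were higher without overlap, with log2 fold changes of 1.51, 1.25 and 0.65 (SE 0.47, 0.57 and 0.33). Without LPS replicate 2, edgeR called INHBB and CCN2 higher (adjusted p = 0.0211 for each) and MET lower. In that fit 3.76% of all genes tested were called higher and 3.45% lower. Over all alternatives the adjusted p ran from 0.0271 to 0.722 for MET and from 0.0105 to 0.710 for CCN2. For INHBB, CCN2 and HBEGF the highest value was in LPS replicate 3.

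Marker genes of other cell types were read beside these results. All 11 tested markers of Kupffer cells or macrophages had negative log2 fold changes, summing to 2011 to 3261 CPM in the CON libraries against 1376 to 2316 in the LPS libraries. Of the lymphocyte markers, 6 of 8 for T or NK cells (126 to 165 CPM against 66.9 to 149) and 6 of 7 for B or plasma cells (26.3 to 114 against 20.1 to 42.9) were lower, as were 6 of 8 endothelial markers (263 to 579 against 217 to 368). The summed levels of these 4 lists overlapped between groups, unlike those of the neutrophil list. Of neutrophil markers, 6 of 7 were higher, at 21.9 to 33.2 CPM in the CON libraries against 87.4 to 308 in the LPS libraries, and all 4 markers of red cell precursors or platelets were higher, at 79.3 to 105 against 102 to 374. Cholangiocyte and stellate cell markers had 5 of 9 higher, at 776 to 1154 CPM against 562 to 1273. No marker with a row was at 0 in every library, and the part of these cells in the results above was not tested.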

How the data were processed

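RNA-seq was analysed for 6 input libraries of liver RNA, 3 CON and 3 LPS. The authors deposited raw counts per gene in 1 table of 31908 genes, as whole numbers without normalization, with gene coordinates and length. The submitters' processing notes name cutadapt 1.9.3 and HISAT2, and the builds galGal6 and hg38, neither of them a pig build. The pig build, the counting program and its strand setting are not given in the sources used. For CON replicates 1 and 2 the labels hold 2 sequencing entries, but the table holds 1 column for each of them. The m6A-IP libraries were not analysed here. Symbols came from a table that pairs 15029 identifiers with a symbol.

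The analysis used edgeR 4.0.16 in R 4.3.3 (filterByExpr with a minimum count of 10, TMM, robust glmQLFit, glmQLFTest), with Benjamini-Hochberg adjustment over the 12774 tested genes. SE were derived from the log2 fold change and the root of its F statistic. An adjusted p below 0.05 with a fold above 1.5 was called. The paper states an unpaired test for its data in general and no test specific to differential expression in RNA-seq. The biological coefficient of variation was 0.397. CPM values are TMM-scaled, and values per kilobase divide them by the deposited length. Alternatives were DESeq2 1.42.0, limma-voom (limma 3.58.1), the likelihood ratio test, RLE factors, library totals, no filter, a minimum of 10 counts in each library, the replicate number as a block, each library left out and other fold thresholds. The procedure was tested on simulated data.

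The members and lists were chosen with earlier results of these data known, and the further lists were written from general knowledge. All members are accounted for. Values in all libraries are given for members with an unadjusted p below 0.05, non-overlapping groups or a call that changes in DESeq2 or without 1 library. From each further list up to 4 genes per direction are named, those with the smallest p among genes without overlap. The values of 1 such gene are not reported here. The counts of non-overlapping genes under other settings and the settings for the further lists were chosen after the data were seen.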

Additional observations from a re-analysis of the deposited data

How the results depend on the processing

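Of the 36 genes, 28 kept the sign of their log2 fold change under every alternative. The number of genes called higher, 7 with all libraries, was 11 with library totals, 536 without the filter, 0 with at least 10 counts in every library, 275 in DESeq2, 2 in limma-voom, 203 in the likelihood ratio test and 0 to 512 with 1 library left out. The number called lower, 0 at first, was 1 with RLE factors and 1 with library totals, 349 without the filter, 143 in DESeq2, 152 in the likelihood ratio test and 0 to 470 with 1 library left out, with 512 and 470 without LPS replicate 2, 39 and 19 without LPS replicate 3, 1 and 0 without LPS replicate 1 and 0 and 0 without any one CON library. Members called higher went from 0 to 3 without the filter and 1 in the likelihood ratio test, and members called lower from 0 to 2 without the filter, 2 in DESeq2 and 2 in the likelihood ratio test, with 0 to 3 in each direction when 1 library was left out.

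Library totals moved the median of all tested genes from 0.01 to -0.12, and that of the members from -0.67 to -0.78, with -0.74 to -0.55 when 1 library was left out. Under library totals the list medians were 0.019 for RB and E2F, -0.074 for inhibitors and p53 (a change of sign) and -0.26 for the damage checkpoint, and the signs of CDK2 (-0.062), CDK6 (-0.10) and TFDP1 (-0.0018) turned. CDK6 also turned without the filter (-0.0091), with at least 10 counts in every library (-0.0144) and in limma-voom (-0.0099), MCM7 in DESeq2 (0.0015), and CDKN1B with RLE factors (0.030) and in DESeq2 (0.031). With at least 10 counts in every library the mitosis median was -0.94. With 1 library left out, log2 fold changes ran from -0.16 to 0.41 in CDK2, -0.13 to 0.15 in CDK6, -0.087 to 0.53 in CCND2, -0.73 to 0.28 in CCNE1, -0.39 to 0.12 in CCNE2, -0.51 to 0.18 in MCM6, -0.65 to 0.25 in MCM7 and -0.38 to 0.25 in CDKN1B. The list medians then ran from -0.74 to -0.38 for replication, -1.31 to -0.82 for mitosis, -0.027 to 0.28 for RB and E2F, -0.25 to -0.033 for the damage checkpoint and 0.0056 (without LPS replicate 3) to 0.76 for growth signals. Except where leaving out a library or changing the filter itself changed the samples or genes tested, the cause was not tested.

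Same-numbered libraries deviated from their group means with correlations of -0.24, 0.22 and 0.03. Libraries with different numbers ran from -0.25 to 0.22. With 3 libraries per group, these correlations cannot decide whether the replicate numbers pair the libraries. With the replicate number as a replicate block, 42 genes were called higher and 9 lower, and 0 members in either direction. Depth limits the low members most, such as CDC6 with 3 counts in LPS replicate 2.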
